A study of Sus scrofa with 10 samples.

Results

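Small non-coding RNA loci of the pig genome were examined in RNA-seq of whole ovaries from 10 gilts, of which 5 were controls and 5 had received rpFSH. A locus was taken when its annotated type named a snoRNA, snRNA, scaRNA, miRNA, misc_RNA, rRNA, ribozyme or Y_RNA and did not name a protein-coding transcript, and 2472 of the 43499 loci of the table met this rule. They comprised 1017 snRNA, 485 snoRNA, 406 miRNA, 330 misc_RNA, 186 rRNA, 26 scaRNA and 9 ribozyme loci, 11 loci of several such types and 2 mitochondrial rRNA loci. The name of a family, such as U6 or 7SK, was taken from the description that the table gives to a locus of the same Rfam number, and 379 loci kept only that number. The type column held no separate entry for Y RNAs, which were listed as misc_RNA. A further 140 loci with a small RNA type were also typed as protein-coding and were left out by the rule. From the age of 210 days every gilt was given altrenogest, a progestin that holds back oestrus, in a daily dose of 20 mg over 18 days, followed by 2 days without it. The rpFSH pigs then received 1000 IU of rpFSH, recombinant pig follicle stimulating hormone made in CHO cells, and the control pigs received saline. Ovaries were taken at 234 days of age after surface follicles had been removed and each library came from 1 pig.

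Small non-coding RNAs act mostly inside complexes with protein. snRNAs form the core of the spliceosome, which cuts introns out of pre-mRNA, with U1 and U2 marking the intron ends and U4, U5 and U6 joining them. C/D box snoRNAs guide 2′-O-methylation and H/ACA box snoRNAs guide pseudouridylation of rRNA, and scaRNAs do the same for snRNAs in Cajal bodies. In mammals most of these guides are cut out of the introns of coding or non-coding host transcripts, whereas 7SK, U6, RNase P RNA, RNase MRP RNA and Y RNAs are transcribed by RNA polymerase III from promoters of their own. 7SK holds the elongation kinase P-TEFb inactive, 7SL is the scaffold of the signal recognition particle, RNase P trims tRNA precursors and RNase MRP acts on rRNA precursors. miRNAs are cut from hairpins and silence mRNAs. FSH acts on granulosa cells, where it drives growth and steroid synthesis.

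Most of the loci held few reads or none. Of the 2472 loci, 790 had a count of 0 in every pig, 473 had a highest count of 1 to 3, 637 had a count above 0 in every pig and 472 had a mean count of 10 or more. A mean count of at least 10 was reached at 10 of 11 loci of several types, 15 of 26 scaRNA loci and 197 of 485 snoRNA loci. Only 120 of 1017 snRNA loci reached that mean. U6 copies, at 872 loci, made up most of the snRNA class, and 327 of them were at 0 throughout. Among 186 rRNA loci, which were almost all 5S copies, 3 reached it, and the 2 mitochondrial rRNA loci were at 0 in all pigs. The study's methods give rRNA depletion as the selection step and the labels give poly(A) selection, and the libraries were of fragmented RNA, which is not a preparation for mature miRNAs. The annotated loci had the lengths of their families, with medians of 164 bp for U1, 191 bp for U2, 107 bp for U6, 75 bp for C/D box snoRNAs and 81 bp for miRNA hairpins.

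**Figure D1:**
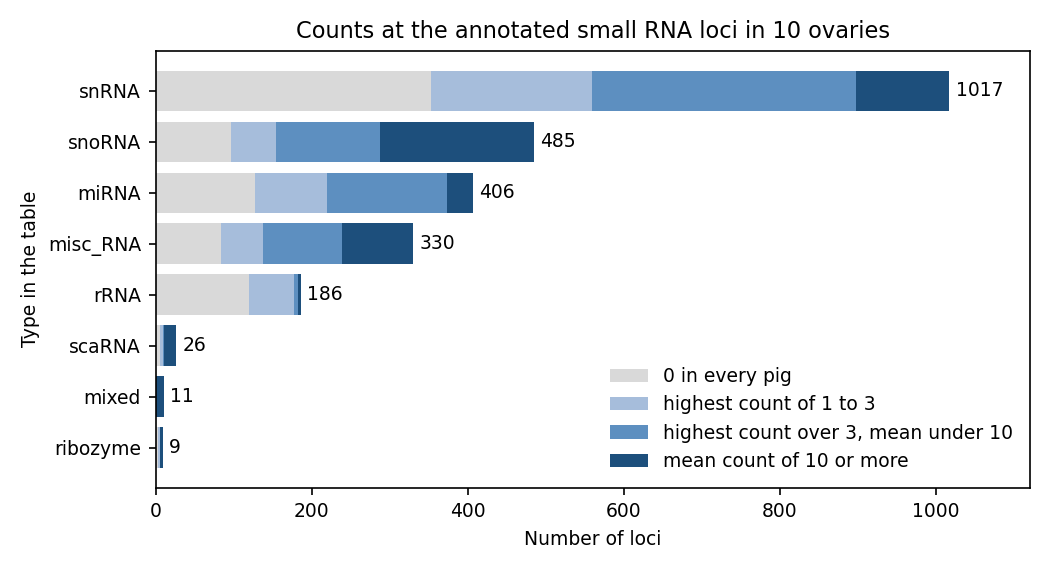
Horizontal bars give the number of small RNA loci of each type in the table, split by their counts over the 10 pigs, with the total at the end of each bar. The darkest part, a mean count of 10 or more, covers 197 of 485 snoRNA loci but 120 of 1017 snRNA and 3 of 186 rRNA loci.

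2 kinds of locus were mixed under the rule. At 2412 loci the table listed only the annotated transcript, with a median span of 107 bp. The remaining 60 loci had also been given a transcript assembled from the reads, with a median span of 22984.5 bp, and for these the value covers the long transcript around the small RNA. The 60 long loci held 24.9% of the counts at small RNA loci. Of the 2412 short loci, 655 lay inside a protein-coding locus on the same strand, 447 inside one on the opposite strand and 1310 in none, and 1137 overlapped no other locus. Reads at the 655 can belong to the small RNA or to unspliced transcript of the gene around it, and the table does not separate them.

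Total counts per pig ranged from 64873797 to 75114003. Small RNA loci took 5.62, 4.41, 4.92, 4.76 and 3.89 in the control pigs and 3.56, 4.52, 7.96, 5.31 and 5.100 in the rpFSH pigs, in percent of all counts. The groups overlapped, at 4.72% ± 0.640 against 5.29% ± 1.64 (SD, n = 5 each), and the highest and the lowest share were both in rpFSH pigs. In bulk ovary, fewer cells of a type and less RNA per cell cannot be told apart. A few loci held most of these counts. 7SK, RNase P RNA and RNase MRP RNA at 1 locus each held 55.5% of them, and the 10 most counted loci held 86.7%. FPKM, the authors' value per length and depth, gave the small RNA loci more weight, with 48.7% ± 4.36 of the summed FPKM in the control pigs and 52.0% ± 9.18 in the rpFSH pigs. Among the 57 short loci with a mean count of at least 100, rpFSH pig 3 had the highest CPM, the count scaled to library size by TMM, at 29, and rpFSH pig 1 had the lowest at 28. The ovary of rpFSH pig 1 was also among those with high luteal cell markers, with a summed FPKM of 1415 over 4 such genes, against 15.2 to 58.5 in 7 pigs, 346 in rpFSH pig 4 and 2721 in control pig 2. Of the 57 loci, control pig 2 had the lowest CPM at 9, control pig 5, with a luteal sum of 15.2, at 10, and the remaining pigs at 1 or 2 each. The part of these markers in the levels of the small RNA loci was not tested.

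Few small RNA loci differed between the groups, and none did after adjustment in edgeR. Of the 2472 loci, 465 passed edgeR's filter on low counts, and the changes given here are those of the 465 and not of all 2472. With the limits of the study, an unadjusted P under 0.05 and a log2 fold change over 1 in size, 3 of the 465 were higher in rpFSH pigs and 9 were lower. Over all 34569 loci tested, 0.865% were called higher and 1.87% lower, and the small RNA loci, at 0.645% and 1.94%, were close to these shares. Without control pigs 2 and 5, whose multiciliated cell markers were high, a setting chosen after seeing the data, 8 were higher and 6 lower, and over all loci 1.85% were higher and 1.10% lower. Leaving out 1 pig gave 7 higher without rpFSH pig 4 and 5 higher without control pig 3 or 5 or rpFSH pig 3 or 5, and 5 lower without control pig 2 and 4 lower without rpFSH pig 1. Over all fits that left out a pig, 1.23% to 3.03% of the small RNA loci and 2.45% to 3.43% of all loci were called in either direction. In limma on log2(FPKM + 1), which tested 1074 small RNA loci, the fold limit was set on the ratio of mean FPKM. There 15 were higher and 30 lower, and these were 4.19% against 1.92% of all loci. An unadjusted P under 0.05 was reached by 19 small RNA loci (4.09%), against 5.09% of all loci. No small RNA locus had an adjusted p under 0.05 in edgeR's quasi-likelihood test, where the lowest was 0.930, or in limma on FPKM, whereas DESeq2 gave 2 of 465, and 159 of all 34569 loci. The median log2 fold change was 0.04 over the 465 small RNA loci and -0.00 over all loci, with the quartiles of the small RNA loci at -0.26 and 0.33. Medians per class were 0.03 for 194 snoRNA, 0.20 for 16 scaRNA, 0.15 for 118 snRNA, 0.02 for 86 misc_RNA and -0.10 for 35 miRNA loci. The groups did not overlap in CPM at 1 small RNA locus with rpFSH pigs above and at 1 with rpFSH pigs below, against 0.408% and 0.391% of all loci tested.

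**Figure D2:**
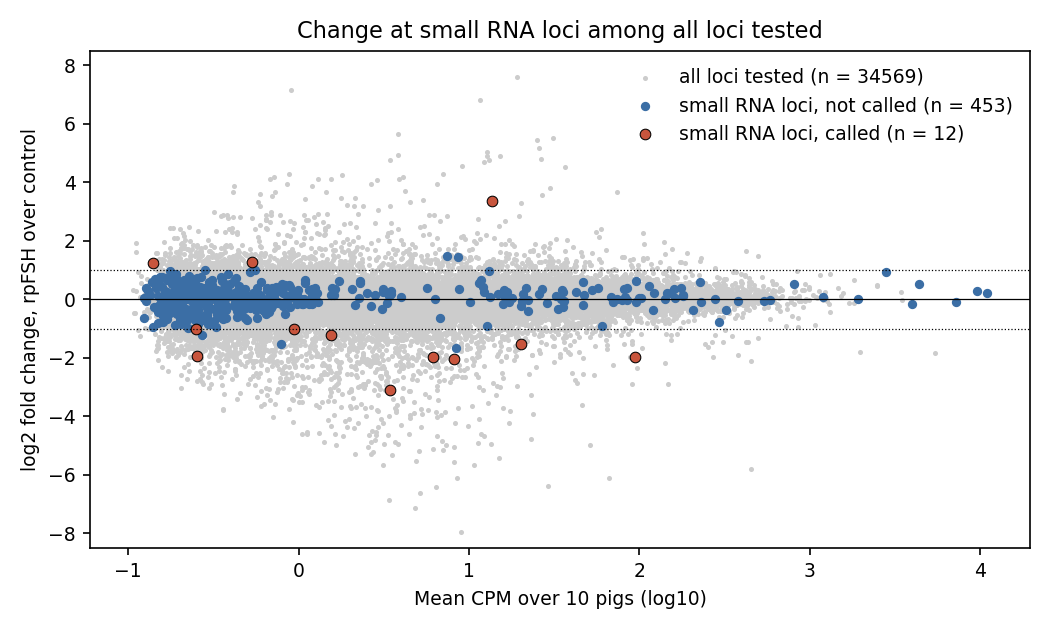
Each point is a locus, with its mean CPM over the 10 pigs on a log10 axis and its log2 fold change in edgeR, rpFSH over control, on the other. Grey points are all 34569 loci tested, blue points the 453 small RNA loci that were not called and red points the 12 that were, and dotted lines mark log2 fold changes of 1 and -1. The most abundant small RNA loci, at the right edge, lie between the dotted lines.

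The abundant RNAs that work outside splicing were led by 7SK. Its main locus, MSTRG.30798 at chr7:46656764-46657094, had an FPKM of 28377 and held 99.5% of the counts of all 127 short 7SK loci. The locus was at 10583, 7188, 10581, 13250.4 and 9198 CPM in the control pigs and 7533, 10471, 18967, 10962 and 10980.3 CPM in the rpFSH pigs. The group ranges overlapped, with rpFSH pig 3 the highest of the 10 pigs and control pig 2 the lowest, and the log2 fold change was 0.21 in edgeR and 0.18 ± 0.26 in mean log2 CPM (± SE, n = 5 each, exact permutation test on mean log2 CPM, p = 0.516). RNase P RNA at MSTRG.31497 (chr7:78551527-78551853) had an FPKM of 24879.7 and 10474, 10785, 9620.3, 6457 and 5912 CPM in the control pigs and 5747, 8613, 17268, 11360.2 and 9253 CPM in the rpFSH pigs. Here too rpFSH pig 3 was the highest, and its group also held the lowest pig, so that the ranges overlapped (log2 fold change of 0.27 in edgeR and 0.22 ± 0.32 in mean log2 CPM, exact permutation p = 0.556). RNase MRP RNA at MSTRG.2856 (chr1:236380019-236380276) was measured at 9568, 7532, 7629, 6962 and 5843 CPM in the control pigs and 4305, 5462, 9536, 8215 and 7455 CPM in the rpFSH pigs. It was the one of the 3 whose mean was lower in rpFSH pigs, by less than the spread between pigs (log2 fold change of -0.10 in edgeR and -0.14 ± 0.24 in mean log2 CPM, exact permutation p = 0.579). Per length the 3 RNAs were close, with FPKM in the control pigs of 26622 ± 6696 for 7SK, 22678 ± 5592 for RNase P RNA and 25066 ± 4669 for RNase MRP RNA (SD, n = 5), and they differed by less than the spread between pigs. The main Y RNA locus, MSTRG.35259, was at 1.04 ± 0.545 against 1.28 ± 0.286 CPM (SD, n = 5 each). Of 3 vault RNA loci, none passed the filter, and the most counted, ENSSSCG00000023841, had a highest count of 14. No locus was given the name telomerase RNA, U3 or U8 in its name or description, and Rfam numbers without a family name in the table were not resolved, so these RNAs may be among them.

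Reads at 7SL loci fell mainly on a pair of loci on chromosome 1 that behaved unlike each other. The short locus MSTRG.2188 (chr1:179456985-179457287), which RefSeq lists as an SRP RNA gene, had 3326, 5119.7, 312, 286 and 467 CPM in the control pigs and 246, 4007, 4609, 431 and 394 CPM in the rpFSH pigs. Control pigs 1 and 2 and rpFSH pigs 2 and 3 were at 3326 CPM or more and the other 6 pigs at 467 or less, so that pigs of both groups fell on either side. With this split within groups the log2 fold change was 0.03 in edgeR and 0.02 ± 1.27 in mean log2 CPM (exact permutation p = 0.960). The second locus, MSTRG.2202 (chr1:179667889-179686694), spans 18806 bp around another 7SL copy on the opposite strand and had 4566, 4047, 4144, 4219 and 4138 CPM in the control pigs and 2069, 2601, 5620.3, 4617 and 3913 CPM in the rpFSH pigs. The locus also carries the gene name NEMF, and its reads, which enter the 7SL sum below, may belong to transcript of that gene. Its control pigs lay within 4047 to 4566 CPM, with rpFSH pigs 1, 2 and 5 below and rpFSH pigs 3 and 4 above that range. Another copy, MSTRG.2629 (chr1:218682874-218683164), was at 127, 151, 38.9, 62.3 and 99.5 CPM in the control pigs and 66.6, 134, 191, 141 and 128 CPM in the rpFSH pigs, with rpFSH pigs 4 and 5 near the pigs that were high at the first. 7SL copies are nearly identical, and which copy a read was assigned to is uncertain. The sum over 15 7SL loci was 8019.6, 9318, 4495, 4568 and 4705 CPM in the control pigs and 2382, 6743, 10420.1, 5189 and 4436 CPM in the rpFSH pigs, and the 4 pigs that were high at the short locus were again the highest.

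**Figure D3:**
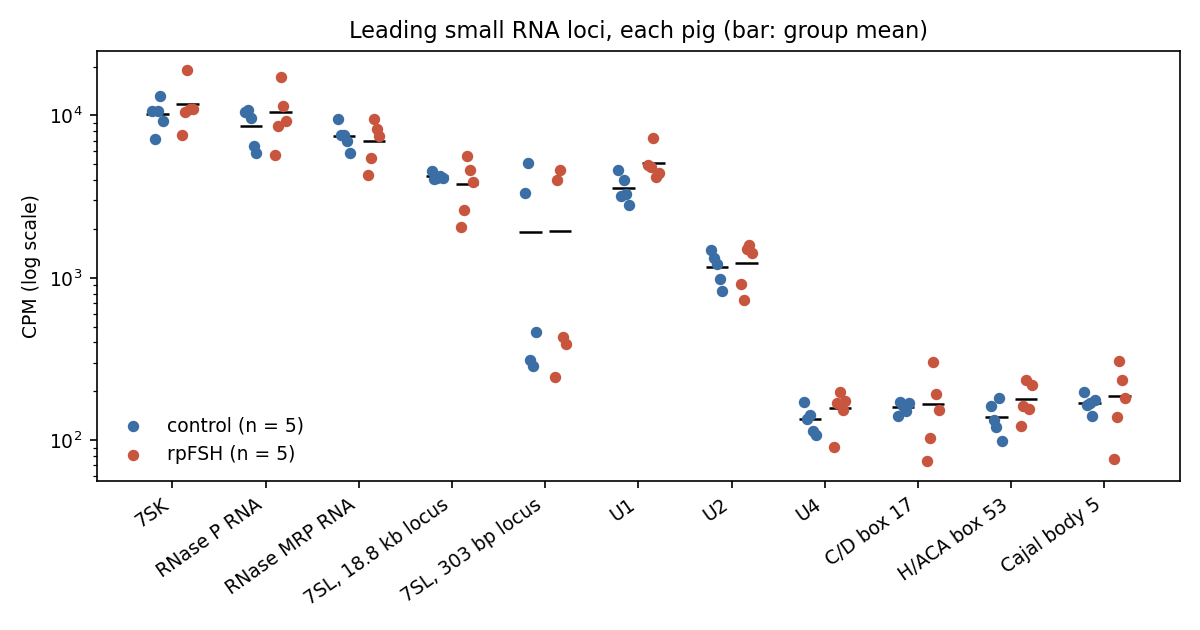
Points give the CPM, on a log axis, of 11 abundant small RNA loci in each control pig (blue) and rpFSH pig (red), and black bars give group means. The short 7SL locus splits the pigs of each group into high and low, with 2 of 5 high in both, whereas U1 lies higher in rpFSH pigs with an overlap.

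Among the spliceosomal RNAs, U1 was the most abundant per length and its main locus had an unadjusted P under 0.05. MSTRG.32921 (chr8:71485553-71485716) held 99.2% of the counts of 50 short U1 loci, at an FPKM of 22625. The locus was at 4638, 3204, 4008, 3277 and 2827 CPM in the control pigs and 4946, 4825, 7259, 4167 and 4429 CPM in the rpFSH pigs. All rpFSH pigs exceeded 4 of 5 control pigs, and control pig 1 lay above rpFSH pigs 4 and 5. The log2 fold change was 0.51 in edgeR and 0.51 ± 0.19 in mean log2 CPM (exact permutation p = 0.0317), with an unadjusted P of 0.0332 and an adjusted p of 0.947 in edgeR, under the fold limit of the study. U2 counts were divided between MSTRG.17492 on chromosome 2 (chr2:8928980-8929170), with 58.3% of those at 31 short loci, and a row of copies on chromosome 12. The chromosome 2 locus was at 1482, 1325, 1217, 989 and 832 CPM in the control pigs and 914, 734, 1496, 1590.2 and 1428 CPM in the rpFSH pigs, with overlapping groups and a log2 fold change of 0.08 in edgeR and 0.04 ± 0.27 in mean log2 CPM (exact permutation p = 0.865). U4 was measured mainly at a locus of 972 bp, MSTRG.10851, at 134 ± 25.4 against 157 ± 40.1 CPM (SD, n = 5 each).

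U5 and U6 were hardly covered in spite of their place in the main spliceosome. The most counted U5 locus, MSTRG.33384, had a highest count of 55 and was not tested. The 861 short U6 loci together reached only 35.8, 35.4, 37.4, 35.3 and 37.01 CPM in the control pigs and 40.9, 38.9, 37.4, 37.3 and 39.4 CPM in the rpFSH pigs, of which the leading copy held 3.17%. Their sums lay close together, with control pig 3 just above rpFSH pig 4 as the one overlap of the groups, and the group means differed by a log2 ratio of 0.10. This sum gathers single reads at many near-identical copies and, at the copies inside genes, unspliced transcript of the gene cannot be told apart from U6. The RNAs of the minor spliceosome, which removes a rare class of introns, were also low. U11 at MSTRG.28518 was at 2.34 ± 0.885 against 2.72 ± 0.719 CPM, U12 at MSTRG.24524 at 1.11 ± 0.246 against 0.983 ± 0.493 CPM and U4atac at MSTRG.12917 at 0.192 ± 0.0585 against 0.256 ± 0.0879 CPM (SD, n = 5 each), and none of the 3 was called. U6atac was most counted at MSTRG.11947 (chr14:99793182-99793304), which held only 28.7% of the counts of 23 short U6atac loci. Of 6 short U6atac loci tested, 2 had a log2 fold change above 0 and 4 below, with a median of -0.20. The one called was MSTRG.11947, which lies in the locus of PAPSS2 on the opposite strand and was called lower. It was at 1.88, 1.45, 1.77, 0.770 and 0.407 CPM in the control pigs and 0.757, 0.722, 0.381, 0.858 and 0.380 CPM in the rpFSH pigs. Control pigs 1, 2 and 3 lay above all others, and control pigs 4 and 5 lay within the rpFSH range (log2 fold change of -1.02 in edgeR and -0.85 ± 0.46 in mean log2 CPM, exact permutation p = 0.103). The call was lost in 7 of the 10 fits that left out a pig, namely control pig 1, 2 or 3 or rpFSH pig 1, 2, 3 or 5, with log2 fold changes of -1.10 to -0.82.

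The modification guides were led by a few RNAs in each class. Among the snoRNA loci the highest FPKM was that of C/D box 17, MSTRG.15456 (chr17:26374923-26375159), at 587, in the locus ENSSSCG00000007088 that RefSeq names SNX5. It was at 141, 172, 163, 151 and 170.2 CPM in the control pigs and 74.5, 103, 304, 194 and 154 CPM in the rpFSH pigs. The 5 control pigs lay within 141 to 172 CPM, and the rpFSH pigs spread to both sides of that range (log2 fold change of 0.06 in edgeR and -0.11 ± 0.36 in mean log2 CPM, exact permutation p = 0.810). H/ACA box 53, MSTRG.25989 (chr5:85285886-85286133), an RNA in the locus of the mitochondrial phosphate carrier SLC25A3, followed at an FPKM of 548 and 139.6 ± 32.8 against 179 ± 46.8 CPM. H/ACA box 48, MSTRG.7045, in the locus of the translation factor EIF4A1, was at an FPKM of 295. It had 54.5, 37.2, 40.2, 24.01 and 30.5 CPM in the control pigs and 11.4, 46.6, 98.9, 61.5 and 61.05 CPM in the rpFSH pigs, with rpFSH pigs at both the lowest and the highest value. The scaRNAs were led by small Cajal body RNAs 5, 7 and 13. RNA 5 (MSTRG.14153, in ATG16L1, chr15:133671378-133671653) had an FPKM of 555, RNA 7 (MSTRG.8914, in KPNA4, chr13:100197994-100198314) of 464 and RNA 13 (MSTRG.32039) of 165. Their log2 fold changes were 0.15, 0.38 and 0.33 in edgeR and 0.00 ± 0.36, 0.28 ± 0.33 and 0.24 ± 0.34 in mean log2 CPM, all with overlapping groups (exact permutation p = 0.984, 0.421 and 0.484). None of 65 tested short C/D box loci, 64 tested short H/ACA box loci or 16 tested scaRNA loci was called. Over all loci tested 2.74% were called in either direction, so that few calls would fall in sets of this size. Over 151 short C/D box loci the sum was 220.4, 241, 243, 220.3 and 244 CPM in the control pigs and 121, 173, 405, 284 and 239 CPM in the rpFSH pigs. The control pigs differed little from each other in this sum, whereas rpFSH pig 1 was the lowest and rpFSH pig 3 the highest of all 10.

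At 241 tested loci a coding locus on the same strand surrounded the small RNA and was itself tested. Only 43 of them had a higher FPKM than that host, the median ratio was 0.336 and 10 had over 10 times the FPKM of the host. Among the types with at least 11 pairs, scaRNAs stood highest against their hosts, with a median ratio of 1.24 over 11 pairs, against 0.275 over 133 snoRNA and 0.149 over 49 C/D box pairs. The largest ratios were at snoRNA copies in TEX14 (up to 320.2-fold), at RNA 5 in ATG16L1 (95.1-fold) and at RNA 7 in KPNA4 (41.5-fold). A short locus at a fraction of its host's level may hold intron reads of the host as well as the guide, and the table does not tell them apart. The log2 fold changes of locus and host differed by over 1 at 4, of which 3 lay in TEX14. None of the 196 hosts was called, against 2.74% of all loci tested in either direction. Where a host carried several guides, their levels still differed. The locus of SNAPC5 and the ribosomal protein gene RPL4 held 5 loci with FPKM of 2.11 to 5.04 and log2 fold changes of -0.16 to 0.28, against an FPKM of 88.4 for the host.

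**Figure D4:**
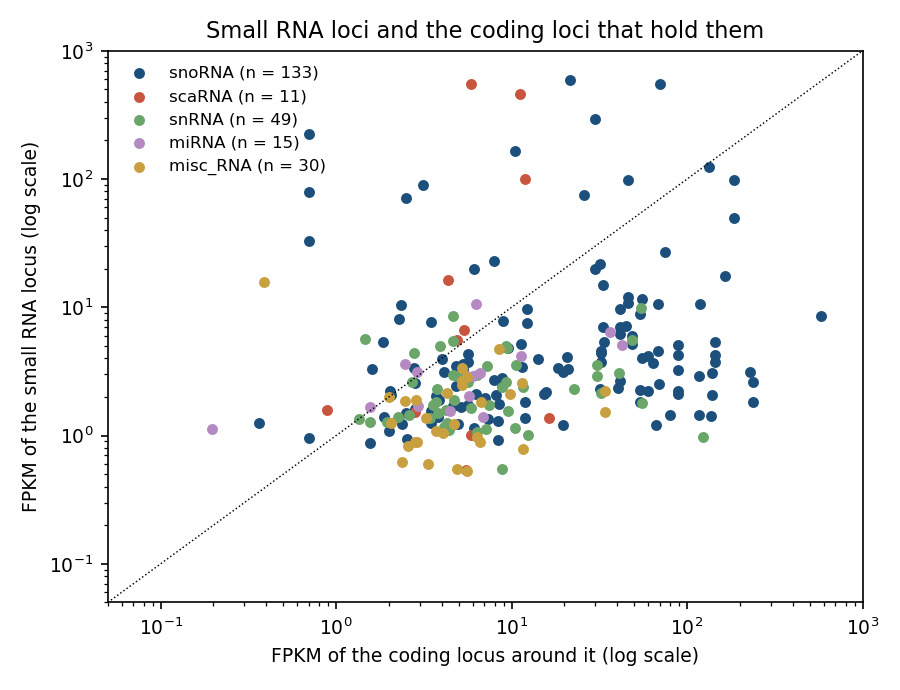
Each point is a short small RNA locus inside a coding locus of the same strand, with the mean FPKM of the coding locus and that of the small RNA locus over 10 pigs on log axes, coloured by type, and the dotted line marks equal values. Most points lie below the line, and the few far above it are snoRNA and scaRNA loci and 1 misc_RNA locus. The plot leaves out 2 pairs of mixed type and 1 ribozyme pair.

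The lowest P of the small RNA loci was in a group of 4 snoRNA copies inside TEX14, a gene needed for the bridges between germ cells. All 4 carry the Rfam numbers RF01848 and RF00012, for which the table gives no family name, span 217 bp each and lie on chromosome 12 between 34885726 and 34903165, on the strand of TEX14. MSTRG.6428 (chr12:34899380-34899596) had 40.8, 25.2, 33.8, 11.3 and 38.2 CPM in the control pigs and 10.7, 13.8, 7.51, 9.24 and 10.8 CPM in the rpFSH pigs. Control pigs 1, 2, 3 and 5 were above all rpFSH pigs, and control pig 4 lay within the rpFSH range. The means were 29.8 ± 11.9 against 10.4 ± 2.33 CPM, a log2 fold change of -1.52 in edgeR and -1.41 ± 0.37 in mean log2 CPM (exact permutation p = 0.0159). It had the lowest P of all 465 small RNA loci in edgeR (unadjusted P = 0.000726, adjusted p = 0.930), and it was called in each of the 10 fits that left out a pig. MSTRG.6429 (chr12:34902949-34903165) was far less covered, with a mean count of 17.9, and had 0.573, 0.542, 0.374, 0.411 and 0.131 CPM in the control pigs and 0.0571, 0.194, 0.168, 0.0429 and 0.0563 CPM in the rpFSH pigs. It was also called lower, with a log2 fold change of -1.95 in edgeR and -1.57 ± 0.43 in mean log2 CPM (exact permutation p = 0.0238), with control pig 5 within the rpFSH range. At MSTRG.6427 the values were 11.2, 14.9, 7.91, 10.7 and 19.3 CPM in the control pigs and 0.799, 1.999, 1.17, 14.4 and 1.56 CPM in the rpFSH pigs. There rpFSH pigs 1, 2, 3 and 5 lay below all control pigs and rpFSH pig 4 among them, and the locus was not called (log2 fold change of -1.68 in edgeR and -2.49 ± 0.75 in mean log2 CPM, unadjusted P = 0.0509 in edgeR, exact permutation p = 0.0317).

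The most abundant of the 4 copies had a higher mean in rpFSH pigs. MSTRG.6426 (chr12:34885726-34885942), at an FPKM of 223.7, had 67.3, 33.99, 53.3, 49.3 and 41.02 CPM in the control pigs and 38.5, 75.3, 71.9, 77.1 and 60.8 CPM in the rpFSH pigs. The groups overlapped, and the log2 fold change was 0.40 in edgeR and 0.40 ± 0.25 in mean log2 CPM (exact permutation p = 0.143). The sum over the 4 copies was 119.7, 74.6, 95.4, 71.8 and 98.6 CPM in the control pigs and 50.1, 91.3, 80.7, 101 and 73.3 CPM in the rpFSH pigs. On this sum the groups overlapped, at 92.04 ± 19.6 and 79.3 ± 19.4 CPM (SD, n = 5 each), a log2 ratio of means of -0.22. The copies share their names and length, and reads of near-identical copies can be assigned to either, so the level of a single copy is uncertain. TEX14 itself had an FPKM of 0.699 and a log2 fold change of 0.02. U1 loci follow further along the chromosome, and one of them, MSTRG.6421 (chr12:34924485-34924648), which overlaps TEX14 in RefSeq, was called lower, at 1.499, 1.83, 1.65, 4.54 and 1.42 CPM in the control pigs and 0.571, 0.708, 1.46, 0.586 and 1.34 CPM in the rpFSH pigs.

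**Figure D5:**
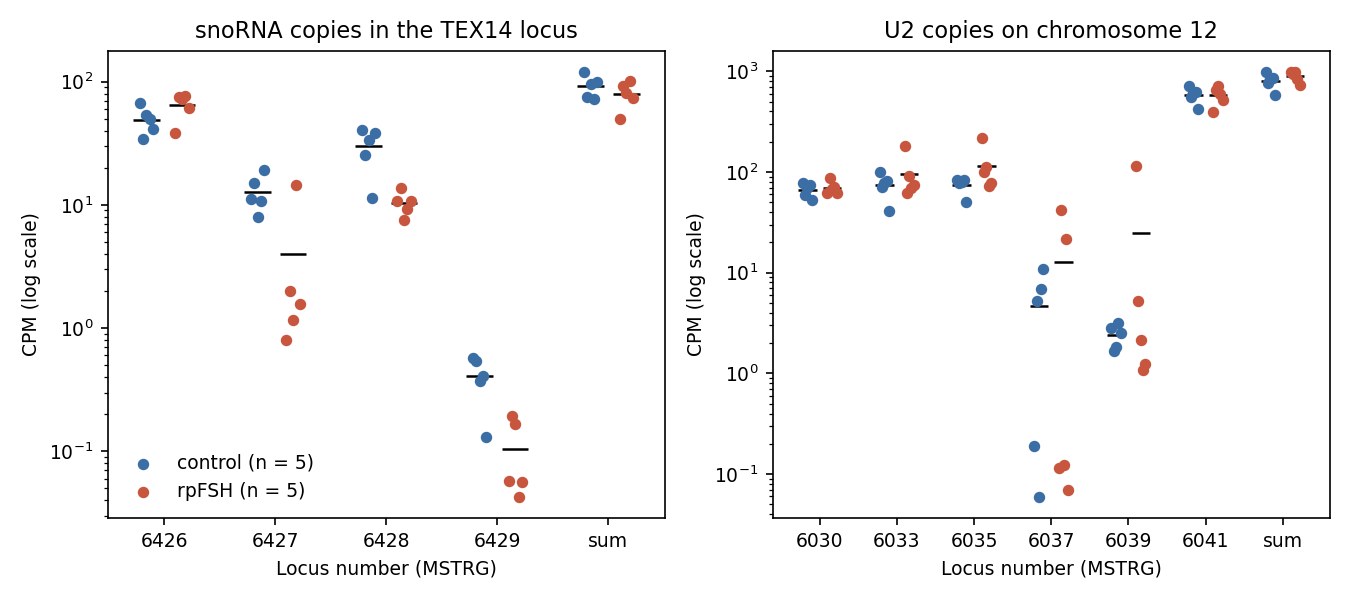
Points give the CPM, on log axes, at single copies and at their sum in control pigs (blue) and rpFSH pigs (red), with black bars for group means. On the left, copies MSTRG.6427, MSTRG.6428 and MSTRG.6429 in the TEX14 locus have lower means in rpFSH pigs, MSTRG.6426 a higher one, and the sums overlap. On the right, 6 of the 8 chromosome 12 U2 copies in the sum are drawn, and copies MSTRG.6037 and MSTRG.6039 differ between pigs of one group by more than the sum does.

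Other calls at snRNA loci were also at single copies of large families. At MSTRG.6421 control pig 4 stood above the other control pigs, and only rpFSH pigs 3 and 5 came near them. The log2 fold change was -1.23 in edgeR and -1.15 ± 0.41 in mean log2 CPM (exact permutation p = 0.0159), and without control pig 4 it was -0.78 in edgeR and no longer called. The sum over the 13 U1 loci on chromosome 12 was 9.01, 7.93, 8.198, 12.4 and 9.01 CPM in the control pigs and 3.05, 6.68, 8.55, 7.34 and 8.66 CPM in the rpFSH pigs, with overlapping groups. MSTRG.34352 (chr9:38030826-38030961), which the table describes as a U1 pseudogene, was at 11.7, 0.322, 11.7, 6.48 and 0.722 CPM in the control pigs and 0.257, 1.47, 0.716, 0.343 and 0.816 CPM in the rpFSH pigs. Control pigs 1, 3 and 4 were high, and control pigs 2 and 5 lay within the rpFSH range, so that the log2 fold change of -3.10 in edgeR and -2.21 ± 1.13 in mean log2 CPM came with an exact permutation p of 0.111. A U1 locus in SENP6, MSTRG.1048, was the ninth called lower, at 0.338 ± 0.0979 against 0.164 ± 0.0834 CPM. It was named after its values were seen, and its call was lost without control pig 1, 2, 4 or 5 or rpFSH pig 1, 3 or 4, with log2 fold changes of -1.05 to -0.82. Higher in rpFSH pigs was MSTRG.1646, a U6 copy opposite to RTF1, at 0.0588, 0.0586, 0.165, 0.0642 and 0.0656 CPM in the control pigs and 0.271, 0.222, 0.122, 0.200 and 0.169 CPM in the rpFSH pigs. Control pig 3 lay within the rpFSH range, all values rested on 19 counts or fewer, and the call was lost without control pig 1, 2, 4 or 5 or rpFSH pig 1 or 2, with unadjusted P of 0.0503 to 0.0601. A U1 copy on chromosome 7, MSTRG.31210, was not called, at 8.93 ± 4.21 against 17.5 ± 7.15 CPM, with overlapping groups (log2 fold change of 0.97 in edgeR and 0.98 ± 0.40 in mean log2 CPM, exact permutation p = 0.0476).

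The U2 copies of chromosome 12 differed between pigs more than between groups. The copies MSTRG.6030, MSTRG.6033, MSTRG.6035 and MSTRG.6037 start 10282, 10284 and 10282 bp apart and MSTRG.6039 follows after 10611 bp, and each spans 191 bp. MSTRG.6039 (chr12:19702361-19702551) was called higher, at 2.81, 1.67, 1.83, 3.16 and 2.52 CPM in the control pigs and 115, 5.25, 2.13, 1.07 and 1.25 CPM in the rpFSH pigs. The call came from rpFSH pig 1, since the other 9 pigs lay between 1.07 and 5.25 CPM and the groups overlapped (log2 fold change of 3.37 in edgeR and 0.93 ± 1.24 in mean log2 CPM, exact permutation p = 0.683). Without rpFSH pig 1 the log2 fold change in edgeR was 0.02, and the call was also lost without control pig 2 or 3, at 3.27 and 3.29. In the same pig the copies MSTRG.6033 and MSTRG.6035 were at 182 and 219 CPM, the highest of the 10 pigs, and the main copy MSTRG.6041 was at 396 CPM, the lowest. MSTRG.6037 was at 0.191, 5.29, 0.0598, 6.87 and 10.8 CPM in the control pigs and 0.114, 41.5, 0.122, 21.4 and 0.0703 CPM in the rpFSH pigs, high and low in both groups. The sum over 8 short loci was 974, 769, 855, 865 and 583 CPM in the control pigs and 974, 945, 984, 833 and 737 CPM in the rpFSH pigs. It overlapped between the groups, and rpFSH pig 1 was within the range of the others.

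A snoRNA of Rfam number RF00056, MSTRG.15886 (chr17:41478007-41478137), was the one called locus whose groups did not overlap. It was at 0.206, 0.117, 0.374, 0.488 and 0.354 CPM in the control pigs and 1.23, 0.625, 0.792, 0.543 and 0.591 CPM in the rpFSH pigs. All rpFSH pigs were above all control pigs, with a log2 fold change of 1.29 in edgeR and 1.23 ± 0.36 in mean log2 CPM (unadjusted P = 0.0124 in edgeR, exact permutation p = 0.00794, the smallest this design allows). It was called in each of the 10 fits that left out a pig. The counts behind these values were 8 to 38 in control pigs and 38 to 86 in rpFSH pigs, so that the raw counts touched, and the table gives no family name for the number. The one locus with rpFSH pigs below was MSTRG.17458 (chr2:8919306-8922756), a transcript of 3451 bp that carries 5 Rfam numbers and the description of C/D box 26, at 10.3, 6.79, 9.44, 8.49 and 6.298 CPM in the control pigs and 5.796, 5.47, 4.62, 5.52 and 5.09 CPM in the rpFSH pigs. Its log2 fold change of -0.64 in edgeR and -0.62 ± 0.15 in mean log2 CPM was under the fold limit (unadjusted P = 0.00424 in edgeR, exact permutation p = 0.00794).

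The last 3 calls were neighbouring loci of 1 long non-coding RNA on chromosome 5. MSTRG.25999 (chr5:86071349-86209368), which holds ssc-mir-135-2, MSTRG.26003 and MSTRG.26005 all overlap the RefSeq lncRNA LOC100514051. MSTRG.25999 had 62.1, 282, 14.02, 66.6 and 323 CPM in the control pigs and 7.49, 90.6, 36.1, 42.3 and 13.2 CPM in the rpFSH pigs. Control pigs 2 and 5 were at 282 and 323 CPM and all other pigs at 90.6 or less. The same pigs were highest at MSTRG.26003 and MSTRG.26005, with log2 fold changes of -1.98, -2.03 and -1.97 in edgeR and -1.72 ± 1.04, -1.56 ± 1.07 and -1.37 ± 0.97 in mean log2 CPM (exact permutation p = 0.119, 0.206 and 0.206). Markers of multiciliated epithelium moved with them. Over 8 of 10 such genes found in the table, the summed FPKM was 23.6 in control pig 2 and 50.7 in control pig 5, 2.95 to 3.20 in the other control pigs and 1.05 to 2.45 in the rpFSH pigs. FOXJ1, the master regulator of motile cilia, was at an FPKM of 5.82 and 14.1 in these 2 pigs and at 0.212 or less in the others, and MCIDAS was listed at 0.0001 in all but these 2. Of 7 such genes tested, 6 were called lower. Without control pigs 2 and 5, a setting chosen after seeing the data, the log2 fold changes of the 3 loci were -0.33, -0.46 and -0.16 and none was called. Each of the 3 calls was also lost without control pig 2 or 5 alone or without rpFSH pig 1, 3, 4 or 5, with log2 fold changes of -2.08 to -1.41. Their level in these pigs and the loss of the calls are all that was measured.

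A few long loci had an unadjusted P under 0.05 in edgeR with a change under the fold limit. MSTRG.17405 (chr2:6782172-6811685), typed misc_RNA with the Rfam numbers RF01955, RF01956 and RF01957 and overlapping the RefSeq lncRNAs LOC102163816 and LOC100513133, spans 29514 bp. It was at 2095, 1822, 2005, 1604 and 2146 CPM in the control pigs and 3021, 2122, 5728, 3783 and 3599 CPM in the rpFSH pigs. All rpFSH pigs except pig 2 were above all control pigs, and the means were 1934 ± 222 against 3651 ± 1329 CPM. The log2 fold change was 0.92 in edgeR and 0.85 ± 0.25 in mean log2 CPM (unadjusted P = 0.00368 and adjusted p = 0.930 in edgeR, exact permutation p = 0.0159). A U6 locus of 65702 bp that carries the name of LMF1, MSTRG.21075, was at 162, 151, 171, 264 and 156 CPM in the control pigs and 260.3, 258, 328, 288 and 223 CPM in the rpFSH pigs. Control pig 4 lay among the rpFSH pigs and the other control pigs below them (log2 fold change of 0.58 in edgeR and 0.61 ± 0.17 in mean log2 CPM, exact permutation p = 0.0317). The transcript around ssc-mir-30a, MSTRG.696, had 78.6 ± 34.4 against 42.1 ± 15.1 CPM and a log2 fold change of -0.90 in edgeR and -0.85 ± 0.37 in mean log2 CPM (exact permutation p = 0.0635). It was highest in control pigs 2 and 5, the pigs with high multiciliated markers.

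miRNA loci gave almost no hairpin reads. Of 396 loci with the hairpin alone, 127 were at 0 in all pigs, 220 with these included had a highest count of at most 3, and the highest mean count was 76.2, at ssc-mir-1296 (MSTRG.11473) in JMJD1C. By FPKM this hairpin, at 10.7, came after ENSSSCG00000026910 (MSTRG.17030), at 14.2, and before ssc-mir-7-2 (MSTRG.4054) in HNRNPK, at 6.37, and none of the 3 was called. Of 25 hairpins tested, 9 were higher and 16 lower in rpFSH pigs, and the median log2 fold change was -0.22, against -0.00 over all loci. None was called, but 25 hairpins are too few to be set against the 2.74% of all loci called in either direction. 23 loci held an miRNA that was listed for the ovary or for cilia, of which 6 were tested and 5 had a highest count of at most 3. The mir-17 to mir-92a hairpins on chromosome 11 had mean counts of 0.8 to 9.9, and only ssc-mir-18a was tested. It was at 0.191, 0.0293, 0.314, 0.295 and 0.0918 CPM in the control pigs and 0.0143, 0.0555, 0.0762, 0.186 and 0.141 CPM in the rpFSH pigs, with overlapping groups. ssc-mir-202, an miRNA of gonads, had a highest count of 11 at its hairpin and ssc-mir-383 of 4, and MIR34B was at 0 throughout. These values describe the hairpin and the transcript around it, not the mature miRNA.

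Reads for miRNAs came from the long transcripts that hold them. The transcript of ssc-let-7c, ssc-mir-99a and ssc-mir-125b-2, MSTRG.9891 (chr13:180857827-181464826), spans 607000 bp and had 336, 99.3, 336, 324 and 276 CPM in the control pigs and 247, 251, 344, 205 and 350.1 CPM in the rpFSH pigs. Control pig 2 was far below the 9 others, and the groups overlapped (log2 fold change of 0.03 in edgeR and 0.12 ± 0.37 in mean log2 CPM, exact permutation p = 0.873). The transcript of ssc-mir-125b-1, MSTRG.34567 (chr9:49096341-49137995), was at 66.6, 63.5, 109, 117 and 146 CPM in the control pigs and 34.3, 56.05, 240.4, 115 and 72.9 CPM in the rpFSH pigs. The rpFSH pigs held both the lowest and the highest of these values. For ssc-mir-424 and ssc-mir-503, MSTRG.36810 (chrX:110382914-110390750), the values were 16.7, 11.3, 29.3, 21.5 and 15.2 CPM in the control pigs and 27.7, 35.5, 13.7, 26.3 and 18.96 CPM in the rpFSH pigs, and the groups overlapped (log2 fold change of 0.38 in edgeR and 0.38 ± 0.33 in mean log2 CPM, exact permutation p = 0.278). The hairpin of ssc-mir-145, an miRNA of smooth muscle, was at 0.563 ± 0.208 against 0.624 ± 0.399 CPM (SD, n = 5 each). 6 further loci with listed miRNAs, those of ssc-mir-21 and ssc-mir-143 among them, were typed as coding, as lincRNA or without a type and do not fall under the rule.

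At rRNA loci the 3 with a mean count of at least 10 were long assembled transcripts around a 5S copy. MSTRG.13368 (chr15:67351722-67373220), in the locus of RBMS1, was at 0.0147, 0.0147, 4.68, 74.3 and 77.2 CPM in the control pigs and 1.899, 79.97, 32.6, 0.0143 and 54.3 CPM in the rpFSH pigs. Control pigs 1 and 2 and rpFSH pig 4 had a single count each, and pigs of both groups were at 32.6 CPM or more. Of the other 2 loci, MSTRG.26206 lay inside the locus of PAWR on the opposite strand and MSTRG.22724 inside that of EXT1 on the same strand. MSTRG.22724 also carries the name of EXT1, and its reads may belong to transcript of that gene. These 2 loci had log2 fold changes of -0.26 and -0.35 in edgeR and -0.26 ± 0.27 and -0.46 ± 0.39 in mean log2 CPM, with overlapping groups (exact permutation p = 0.389 and 0.254). The remaining ribozyme locus tested, MSTRG.12003 in CPEB3, was at 0.181 ± 0.0799 against 0.184 ± 0.0656 CPM.

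Of 84 tested genes in 10 lists of proteins that work with these RNAs, 1 was called, which is 1.19% against 2.74% of all loci in either direction. The 9 snoRNP core genes, among them the methyltransferase FBL and the pseudouridine synthase DKC1, had log2 fold changes of -0.20 to 0.40. The 18 spliceosomal snRNP genes lay between -0.74 and 0.12, the 10 miRNA genes between -0.28 and 0.13, the 6 partners of 7SK between -0.46 and 0.02, the 5 SRP genes between -0.12 and 0.18 and the 10 RNase P and MRP genes between -0.28 and 0.13. The 2 Y RNA and La genes lay between -0.15 and -0.10, the 3 vault genes between -0.12 and -0.02, the 4 telomerase genes between -0.47 and 0.06 and the 17 genes of small RNA transcription between -0.26 and 1.52. Among the last, SNAPC5 was read at a locus that also carries the name of RPL4, and SNAPC1 at one with that of HIF1A. The reads of these loci cannot be divided between the names. The called gene was BRF2, a subunit of the TFIIIB form that starts transcription of U6, 7SK and RNase P RNA. Its FPKM was 1.87, 1.69, 1.86, 2.404 and 1.81 in the control pigs and 1.26, 7.13, 1.81, 8.595 and 8.31 in the rpFSH pigs. rpFSH pigs 2, 4 and 5 were above all control pigs, and rpFSH pigs 1 and 3 were within or below their range (log2 fold change of 1.52, unadjusted P = 0.0109 and adjusted p = 0.930 in edgeR, exact permutation p = 0.151). TERT was the one listed gene with a mean FPKM under 0.1. Ovary markers were present in every pig, with a summed FPKM of 22.2 to 543 over 9 of 11 genes found in control pigs and of 23.8 to 542 in rpFSH pigs, and none of the 9 was called. The highest sums, in control pig 2 and rpFSH pig 1, were mostly STAR, at an FPKM of 532 and 448, which is also a luteal marker. In control pig 2, FSHR, INHA and CYP19A1 were at 0.375, 1.34 and 0.110, each the lowest of all pigs, whereas NR5A1, at 4.09, was not. In rpFSH pig 1, INHA was at 68.7, the highest of all pigs. Summed levels of 4 leukocyte markers were 30.8 to 39.6 in control and 29.5 to 46.9 in rpFSH pigs. Among them, CD68 was read at a merged locus that also carries the name of EIF4A1. That locus alone had an FPKM of 22.4 to 34.9 in control and 24.8 to 44.4 in rpFSH pigs. Most of each leukocyte sum is therefore this locus, whose reads cannot be divided between EIF4A1 and CD68. Summed levels of 4 smooth muscle markers were 49.7 to 1209.8 and 122 to 337, and those of 2 erythroid markers 10.6 to 117 and 14.7 to 53.6.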

How the data were processed

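For each pig, the deposited table held the FPKM and the count of reads of 43499 loci. According to the methods they removed low-quality reads and adapters with Cutadapt, aligned them to the pig genome with HISAT2 and Bowtie2, assembled transcripts and estimated expression with StringTie and Ballgown, and the submitters' processing notes name Sscrofa11.1, HISAT2 2.0, Bowtie 0.12.2 and StringTie 1.3.0. How the counts were made, and how reads that match several copies were counted, is not given in the sources used here. The methods describe rRNA removal and a strand-marking second-strand step, and the labels poly(A) selection.

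Counts of all loci were normalised by TMM and compared by the quasi-likelihood test of edgeR 4.0.16 in R 4.3.3 on the 34569 loci passing filterByExpr, and P was adjusted over all of them by Benjamini-Hochberg. CPM values are TMM-normalised and serve comparisons between pigs, and FPKM serves comparisons between loci. Single loci were also compared by a two-sided exact permutation test of mean log2(CPM + 0.05) over all assignments of pigs to groups, whose smallest p is 0.00794. Beside edgeR's log2 fold change, the difference of these means is printed with its SE, and the exact p belongs to that difference. A count of 3, or 0.0399 to 0.0462 CPM, was taken as the floor and covers counting error only. Alternatives were upper-quartile factors, DESeq2 1.42.0, limma 3.58.1 on log2(FPKM + 1) or log2(FPKM + 0.1) where the mean FPKM reached 0.1, other count filters, the replicate number as a block, other call limits and leaving out each pig. With limma, P came from the logged values, but the fold limit was set on the log2 ratio of the group means of FPKM, which a single pig can move. Leaving out control pigs 2 and 5, and all alternatives for hosts and partner genes, were chosen after seeing the data.

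Named loci were the 3 with the highest mean FPKM per type among those with a mean count of at least 10, at most 8 called loci in each direction by P, the most counted locus of named families, listed miRNAs and called partner genes, and any other locus was named after its values were seen. The members and gene lists were chosen with earlier results of these data known. The calculations were tested on simulated data. Sequences were not used here. Tables were handled and permutations run in Python 3.11.15 (pandas 2.3.3, numpy 2.4.6). Coordinates were taken from the table unchanged.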

Additional observations from a re-analysis of the deposited data

Results flagged for a closer look

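In 96 groups of 5 pigs at named loci, gaps between pigs were taken in log2(CPM + 0.05). On this scale 6 groups held a pig whose gap to the nearest other pig was large against the whole range of its group. All 6 were control pigs, and chance sets apart about 1 in 20 groups. In CPM itself rpFSH pigs also stood apart, such as rpFSH pig 1 at the U2 copy MSTRG.6039, at 115 CPM against 1.07 to 5.25 CPM in its group. The scaRNA MSTRG.32039, small Cajal body RNA 13, was at 29.096 CPM in control pig 2, below the other control pigs. The ssc-let-7c transcript MSTRG.9891 was at 99.3221 CPM in the same pig, again the lowest of its group. Control pig 4 was the highest of its group at the U1 copy MSTRG.6421, at 4.5449 CPM, and at MSTRG.21075, at 264.478 CPM. Control pig 3 was the highest at the U6 copy MSTRG.1646, at 0.1646 CPM, and control pig 1 at U4atac, MSTRG.12917, at 0.2939 CPM, both from 24 counts or fewer.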

How the results depend on the processing

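The number of small RNA loci with an adjusted p under 0.05, 0 in edgeR, was 2 with DESeq2 (MSTRG.6428 at 0.0111 and MSTRG.34352 at 0.0437) and 0 with limma, and in the same DESeq2 test 159 of all 34569 loci passed. Against 3 loci called higher and 9 lower, limma on log2(FPKM + 1) gave 15 and 30 and on log2(FPKM + 0.1) 17 and 29, over 1074 loci tested instead of 465, which were 4.19% and 4.28% of the small RNA loci against 1.92% and 2.22% of all loci, and edgeR without a filter gave 13 and 19 over 1682, or 1.90% against 3.87%. A mean count of at least 50 left 1 higher and 7 lower of 160, or 5.00% against 2.84% of all loci. No fold limit gave 7 higher, with 4.09% of the small RNA loci passing in either direction against 5.09% of all loci. The 37 tested loci that overlap no other gave 0 higher and 2 lower, or 5.41%, with no such share taken over all loci. Leaving out control pigs 2 and 5, a setting chosen after seeing the data, gave 8 higher and 6 lower, and turned the excess of lower calls over all loci, 0.865% higher and 1.87% lower, into 1.85% higher and 1.10% lower. Leaving out 1 pig at a time gave 2 to 7 higher and 4 to 10 lower, or 1.23% to 3.03% of the small RNA loci, against 2.45% to 3.43% of all loci. The difference in share was 3.335 percentage points of the summed FPKM against 0.570 of the counts, with overlapping groups in both. Of 84 partner genes 0 were called with limma on log2(FPKM + 0.1) and 0 with the replicate number as a block, and the pairs in which locus and host changed in the same direction, 127 of 241, came to 32 at a mean count of at least 50, where fewer pairs were tested. The causes were not tested beyond the number of loci or pigs that a setting leaves. The median log2 fold change of the small RNA loci, 0.04, was -0.03 in the log2 ratio of mean FPKM that served as fold change with limma. Without control pigs 2 and 5 it was -0.02, and over all loci these medians were -0.04 and 0.04. The 11 named loci that were called kept their sign under every alternative, whereas 15 of 36 named loci that were not called changed sign under at least 1. The sign also differed between edgeR and the difference of mean log2 CPM at MSTRG.15456 (0.06 and -0.11), MSTRG.34567 (0.05 and -0.20) and MSTRG.19905 (0.15 and -0.01), none of them called.

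Pigs of the 2 groups share numbers 1 to 5 in the labels, and nothing ties a number to a litter or day. Same-numbered pigs correlated at -0.305 to 0.0746 in their deviations from the group means, and 0 of 5 control pigs correlated best with their own number. With the replicate block 1 locus was called higher and 3 lower, and 3 of the 4 were among the 12 called without it. These were 0.86% of the small RNA loci tested, against 1.63% of all loci. Counting depth limits the low loci, since 1682 of 2472 had any count and 465 enough to test.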
